A study of Mus musculus with 2 samples.

Results

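Integrins are heterodimers of an alpha and a beta chain that cross the plasma membrane and tie the extracellular matrix or other cells to the cytoskeleton. The alpha chain largely sets the ligand, such as collagen, laminin or the RGD motif of fibronectin and vitronectin, and a few beta chains are kept mainly to white blood cells. Laminins are trimers of an alpha, a beta and a gamma chain that form the sheet of basement membranes, where integrins and dystroglycan bind them. Fibroblasts in culture hold to the dish largely through fibronectin, vitronectin and collagen receptors.

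The integrin and laminin genes described here were all genes whose platform symbol begins with Itga, with Itgb and a digit, or with Lama, Lamb or Lamc and a digit. They numbered 35 of the 16593 genes on the array, measured by 53 of 25697 probes. Of the 35, 15 were integrin alpha chains, 9 integrin beta chains and 8 laminin chains, and 3 (Itgb1bp1, Itgb1bp2, Itgb3bp) encode other proteins whose names contain a beta chain's name. Itga8, Itga10, Itgal, Lama3 and Lama5 were not analysed here.

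RNA of cultured mouse embryonic fibroblasts of C57BL background was measured on 1-colour Illumina bead arrays. The p53-/- line, which lacks the tumour suppressor p53, was the control. The Dnmt1-/- (p53-/-) line lacked p53 as well, together with Dnmt1, the enzyme that maintains DNA methylation when DNA is copied. Each genotype was 1 array of 1 deposited sample, so no test was possible and every difference below is between 2 samples; whether a line came from 1 embryo or clone was not given in the labels.

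The median probe signal was 151 units for the control and 130 units for the Dnmt1-null line. At a detection p-value under 0.01, 40.1% and 39.1% of probes were detected. Dnmt1 was 4.54-fold lower in the Dnmt1-null line, with signals of 1715 and 439 units, and its transcript was still detected there. Where the Dnmt1 probe lies relative to the disrupted region was not determined, and only a probe within that region can check the label. Of 14 fibroblast markers 12 were detected on both arrays and Lum and Postn on neither. Of the 12, 9 were lower in the Dnmt1-null line, with a median of -0.52 log2, and Dcn was 3.58-fold lower and S100a4 3.98-fold higher. The lines also differed in sex-linked transcripts: the Y-linked genes Eif2s3y (1395 and 117 units), Kdm5d (279 and 115 units) and Uty (184 and 148 units) were detected on the control array alone, and the X-linked RNA Xist (141 and 185 units) on the Dnmt1-null array alone. Genotype and other differences between the lines cannot be told apart in any value below.

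Of the 35 genes, 18 were detected: 12 on both arrays, 4 in the control alone (Itga2b, Itga6, Itgb4, Lama2) and 2 in the Dnmt1-null line alone (Itgb7, Lamb3). Among all 7727 detected genes, 6.6% were detected in the control alone and 4.75% in the Dnmt1-null line alone. Detection on 1 array alone is itself a difference, so the 6 genes of this kind are described singly and support no statement on the whole group. The remaining 17 genes were detected on neither array and have no measured direction.

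**Figure D1:**
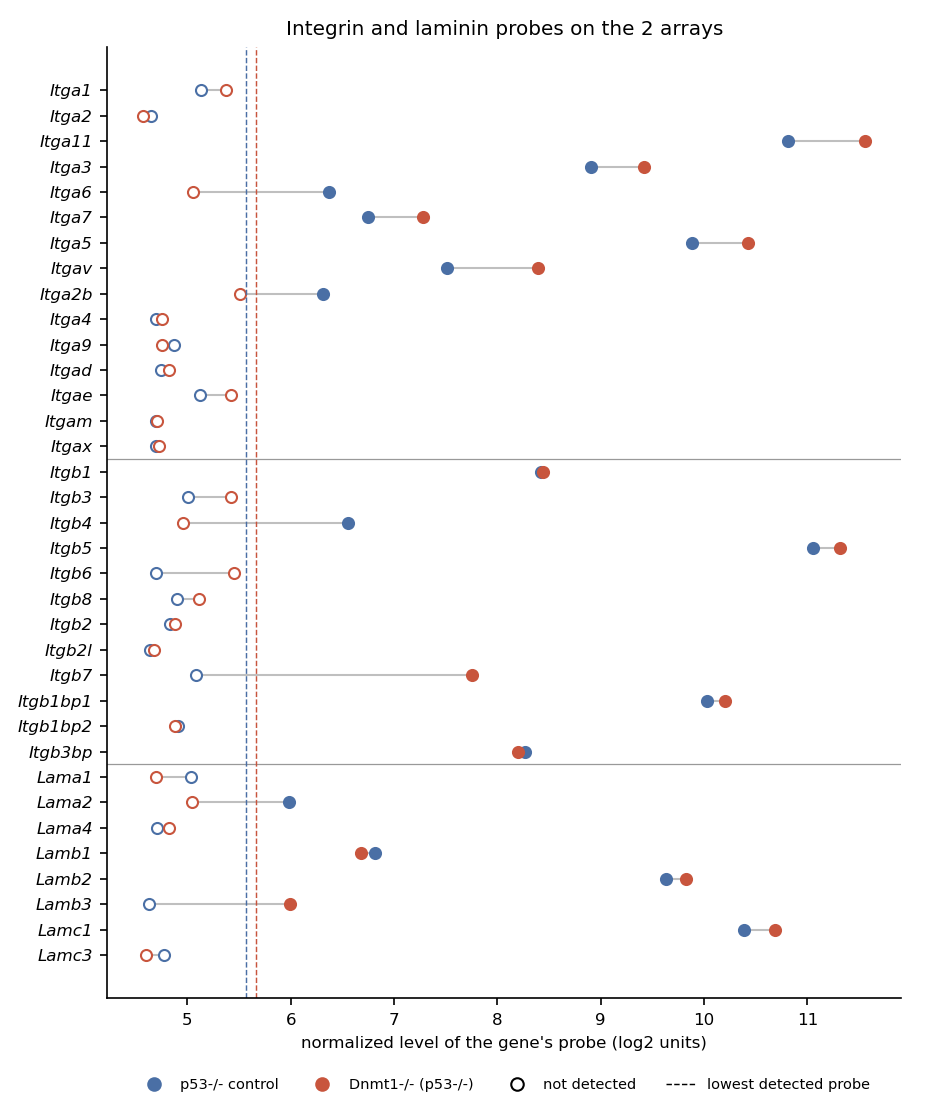
Normalized level (log2 units) of the probe chosen for each of the 35 genes on the p53-/- control array and the Dnmt1-/- (p53-/-) array, 1 point per array, with open points where the probe was not detected and dashed lines at the lowest detected probe of each array. In all, 12 genes lie above both lines on both arrays, Itgb7 and Lamb3 cross them only in the Dnmt1-null line, and Itga2b, Itga6, Itgb4 and Lama2 only in the control; levels of different probes cannot be ranked.

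By the measured difference, Itgb7 and Lamb3 were 2-fold or more higher in the Dnmt1-null line and Itgb4 and Itga6 2-fold or more lower. These are 2 genes in each direction of 18 detected, where 5.55% of all detected genes were that much higher and 4.59% that much lower. Each of the 4 was undetected on 1 array, so its fold is given as a lower limit, taken against that array's dimmest detected probe or the gene's own value, whichever was higher (dimmest detected probe 5.57 log2 for the control, 5.66 log2 for the Dnmt1-null array). These limits, and every "at least" below, hold only under the background correction and offset used, and without background correction a difference can lie below its limit. By lower limits 1 gene, Itgb7, was 2-fold or more higher and none was lower, against 4.5% and 3.71% of all detected genes. All 12 genes detected on both arrays lay within 2-fold.

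The 300 bases around the start of a gene that RefSeq gives (build GRCm38.p6, 250 before and 50 after the start) are printed for 4 genes, with every CpG, the dinucleotide that Dnmt1 keeps methylated, in capitals. Itgb7 and Lamb3 are shown as the genes detected in the Dnmt1-null line alone, Lama2 as a gene detected in the control alone, and Itgav as a gene detected on both arrays. Lama2 and Itgav were picked after their values were seen. Itgb7 lies on the minus strand at chr15:102231886-102232185, Lama2 on the minus strand at chr10:27616893-27617192 and Itgav on the plus strand at chr2:83724147-83724446. Lamb3 has 2 starts on the plus strand, at chr1:193301744-193302043 and chr1:193301993-193302292, whose windows overlap.
Itgb7: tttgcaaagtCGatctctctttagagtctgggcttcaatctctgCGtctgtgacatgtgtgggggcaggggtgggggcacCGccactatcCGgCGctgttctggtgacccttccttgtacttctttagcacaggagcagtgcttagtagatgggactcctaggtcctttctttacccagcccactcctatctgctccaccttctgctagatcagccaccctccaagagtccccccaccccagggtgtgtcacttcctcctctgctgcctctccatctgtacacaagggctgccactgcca
Lamb3, first start: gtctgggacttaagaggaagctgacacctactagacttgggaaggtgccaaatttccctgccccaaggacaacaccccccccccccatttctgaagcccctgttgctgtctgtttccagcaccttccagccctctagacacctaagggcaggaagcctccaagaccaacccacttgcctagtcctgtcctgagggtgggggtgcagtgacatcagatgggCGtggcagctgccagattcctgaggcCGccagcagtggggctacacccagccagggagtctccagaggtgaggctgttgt
Lamb3, other start: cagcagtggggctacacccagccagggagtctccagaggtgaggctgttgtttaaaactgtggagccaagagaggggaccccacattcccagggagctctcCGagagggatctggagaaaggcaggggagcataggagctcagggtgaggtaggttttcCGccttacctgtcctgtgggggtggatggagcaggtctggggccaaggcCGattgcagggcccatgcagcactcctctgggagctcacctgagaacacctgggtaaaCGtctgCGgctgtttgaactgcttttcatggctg
Lama2: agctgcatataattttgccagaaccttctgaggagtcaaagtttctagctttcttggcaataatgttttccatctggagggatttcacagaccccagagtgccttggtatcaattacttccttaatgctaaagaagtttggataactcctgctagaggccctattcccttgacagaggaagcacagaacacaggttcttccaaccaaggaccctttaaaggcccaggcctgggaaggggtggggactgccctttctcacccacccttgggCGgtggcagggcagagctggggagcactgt
Itgav: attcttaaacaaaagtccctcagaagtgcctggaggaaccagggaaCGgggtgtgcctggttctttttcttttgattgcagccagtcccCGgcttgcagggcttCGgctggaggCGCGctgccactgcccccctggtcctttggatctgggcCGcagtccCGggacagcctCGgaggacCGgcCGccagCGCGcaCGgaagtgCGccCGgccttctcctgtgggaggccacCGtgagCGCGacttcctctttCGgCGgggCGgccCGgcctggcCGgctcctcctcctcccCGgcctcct
The Itgb7 window held 5 CpG, the Lamb3 windows 2 and 5, and the Lama2 window 1, while the Itgav window held 24. Methylation was not measured in this series, so the windows show base composition only.

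A window was found for 23 of the 35 genes. Among all 32851 RefSeq windows, 94.6% held at least 1 CpG, 43.6% held 5 or fewer and 20.0% held 24 or more. Taking the window richest in CpG for each gene, the median was 20 CpG over the 10 integrin and laminin genes detected on both arrays, from 4 (Lamb2) to 27 (Itgb1). The 9 genes detected on neither array had a median of 10, from 2 (Itgb2l) to 13 (Itga2 and Itgb8). All genes on the array ran the same way, with a median of 23 CpG for 5669 genes detected on both arrays and 7 for 6998 detected on neither. Genes detected in the Dnmt1-null line alone had a median of 9 over 275 genes, and Itgb7 and Lamb3 lay below it, at 5 each. Itga2b (6) and Lama2 (1) lay below the median of 20 for the 393 genes detected in the control alone. These counts are a description and were not tested.

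**Figure D2:**
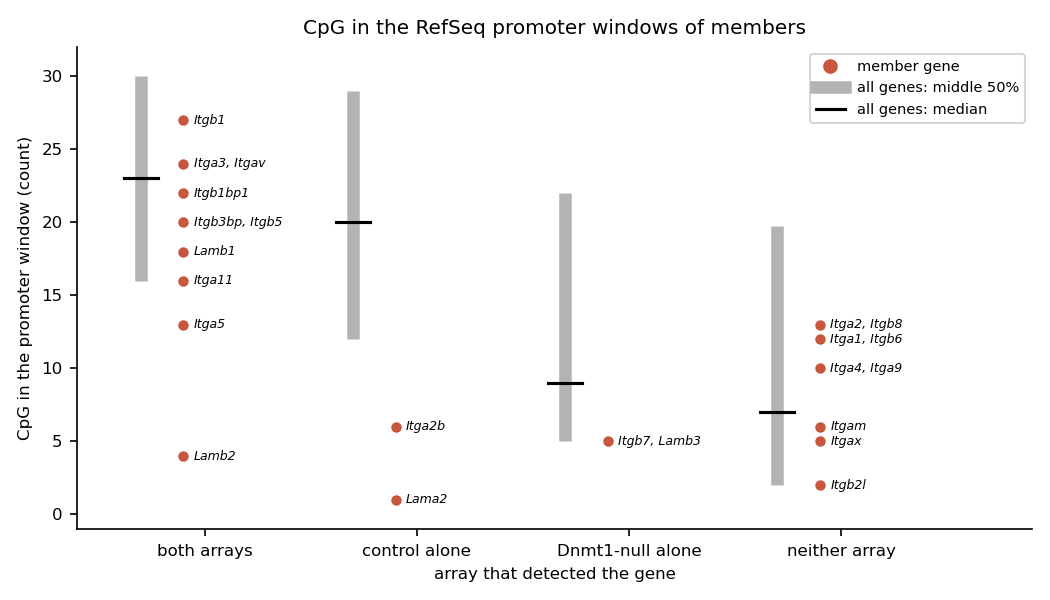
Number of CpG in the 300-base promoter window richest in CpG (vertical axis, count) for the 23 integrin and laminin genes with a window, placed by the array that detected them, beside the median and the middle 50% of all genes of the same class. Members detected on both arrays sit between 13 and 27 other than Lamb2 at 4, and Itgb7, Lamb3, Itga2b and Lama2 at 6 or fewer.

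Of 15 integrin alpha chains 7 were detected, 5 of them on both arrays. All 5 alpha chains detected on both arrays (Itga3, Itga5, Itga7, Itga11, Itgav) were higher in the Dnmt1-null line, by 0.51 to 0.88 log2, which is less than 2-fold. Among all 6850 genes detected on both arrays 46.1% were higher in the Dnmt1-null line by any amount, and their median difference was -0.03 log2.

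Itgav, the alpha chain that binds RGD ligands such as vitronectin and latent TGF-beta, read 312 units in the control and 428 units in the Dnmt1-null line. It was thus 0.88 log2, or 1.84-fold, higher, against a scatter of 0.40 log2. Scatter here and below means the robust SD of the difference over the 500 detected genes closest to the gene in mean level; it is a spread between genes and says nothing of replicates. Itga5, the alpha chain of the classical fibronectin receptor, had 2 probes, which read 1081 and 397 units in the control and 1460 and 488 units in the Dnmt1-null line. The Itga5 probes gave nearly the same difference, 0.54 and 0.58 log2, against a scatter of 0.36 log2. Itga2b, the alpha chain of the platelet fibrinogen receptor, went the other way, from 203 units with detection in the control to 145 units without detection. Its fold was at least 1.57 (-0.29 log2 without background correction), its detection p-value in the Dnmt1-null line was 0.032, and its further probe was detected on neither array and differed by -0.10 log2. Of the platelet markers Pf4, Gp9 and Ppbp were detected on neither array, and Itga2b was the sole detected gene of 6 in that list. The summed signal of the 6, which includes Itga2b itself and otherwise undetected probes, was 919 units in the control and 793 units in the Dnmt1-null line.

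Of the collagen receptors, Itga11, which pairs with Itgb1 and binds fibrillar collagen on mesenchymal cells, was detected on both arrays. Its brightest probe read 1939 units in the control and 3164 units in the Dnmt1-null line, 0.75 log2 or 1.68-fold higher, against a scatter of 0.33 log2. Another of its probes read 421 and 634 units, a difference of 0.91 log2, and the third was detected on neither array and differed by 0.34 log2. Itga1 and Itga2, the collagen receptors of smooth muscle and of epithelia and platelets, were detected on neither array, with differences of 0.24 and -0.07 log2.

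The laminin-binding alpha chains went in both directions. Itga3 read 615 units in the control and 767 units in the Dnmt1-null line, 0.51 log2 or 1.42-fold higher against a scatter of 0.35 log2. Itga7, the laminin receptor of muscle, read 233 and 250 units, which after background correction and normalization was a difference of 0.52 log2 against a scatter of 0.47 log2. Muscle markers differed mostly in the same direction as Itga7: of 16 on the array 10 were detected, 6 on both arrays and 4 in the Dnmt1-null line alone. By the measured difference 8 were 2-fold or more higher in the Dnmt1-null line, among them Tnnt1 (10.8-fold) and Acta1 (8.79-fold), and none was lower. Of all detected genes 5.55% were that much higher. The 8 became 4 when detection on both arrays was required, 5 without background correction and 6 with lower limits or an offset of 50. The myogenic factor genes Myod1 and Myog, at 145 and 144 units in the control and 179 and 177 units in the Dnmt1-null line, were detected in the latter alone, and Des on neither array; these 3 were singled out with their values known. The summed signal of the muscle list was 41414 and 42878 units, and the part of muscle genes in the Itga7 difference was not tested.

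Itga6, the laminin receptor of basal epithelia, endothelium and Schwann cells, was detected in the control alone. Its signal was 207 units in the control and 130 units in the Dnmt1-null line, where its detection p-value was 0.131. The measured difference was -1.32 log2, against a scatter of 0.75 log2, and the lower limit was 1.64-fold. Without background correction Itga6 differed by -0.47 log2. Its partner Itgb4, the beta chain of hemidesmosomes, was also detected in the control alone, with 218 units in the control and 126 units in the Dnmt1-null line and a detection p-value of 0.202 there. Itgb4 differed by -1.60 log2 against a scatter of 0.67 log2, at least 1.86-fold, and by -0.59 log2 without background correction. A further Itgb4 probe, detected on neither array, read 182 and 137 units and differed by -0.64 log2. Itga6 and Itgb4 were thus both dim in the control and undetected in the Dnmt1-null line, and either difference rests on signals close to background.

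Markers of the cell types known for Itga6 and Itgb4 differed in both directions. Of 16 epithelial markers 1 was detected in the control and 3 in the Dnmt1-null line. The basal keratin gene Krt14 was at least 8.74-fold higher and Krt7 at least 7.63-fold higher in the Dnmt1-null line, and Cdh1 was detected on neither array. The summed signal of that list was 2316 units in the control and 2728 units in the Dnmt1-null line. Of 8 Schwann cell and neural markers 3 were detected, with Gap43 at least 2.46-fold and Map2 3.03-fold lower in the Dnmt1-null line, and the sum was 1710 and 1140 units. Map2 had 3 probes and Gap43 1. With the mean of all probes only 1 gene of this list was 2-fold lower, and the list median was -0.54 log2 instead of -1.60 log2. Of 13 endothelial markers 3 were detected, all on both arrays, and Pecam1 and Cdh5 were detected on neither. Eng was 9.37-fold higher in the Dnmt1-null line and the other 2 were lower, Egfl7 by 1.42-fold and the remaining gene by -0.78 log2. The median of the 3 was -0.51 log2, and the sums of the list were 3161 and 2961 units. The part of these cell types in the Itga6 and Itgb4 differences was not tested.

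Itga4 and Itga9, which bind VCAM1 and tenascin, were detected on neither array, with differences of 0.06 and -0.12 log2. The leukocyte alpha chains Itgad, Itgae, Itgam and Itgax were also detected on neither array. The differences of their chosen probes ran from 0.00 log2 (Itgam) to 0.29 log2 (Itgae).

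Itgb7 was the member with the largest difference. It encodes the leukocyte beta chain that pairs with Itga4 to bind MAdCAM-1 in gut vessels and with Itgae to bind E-cadherin. Its single probe read 152 units in the control, with a detection p-value of 0.110, and 309 units in the Dnmt1-null line, with detection. The normalized level went from 5.08 to 7.76 log2, a measured difference of 2.68 log2 against a scatter of 0.49 log2 and a fold of at least 4.57. Without background correction Itgb7 differed by 1.22 log2, below that limit. Neither partner was detected: Itga4 read 134 and 117 units, and none of the 6 Itgae probes was detected on either array. In the Dnmt1-null line 2 Itgae probes came near detection, with p-values of 0.039 and 0.048 and differences of 0.29 and 0.31 log2. Itgb2, the beta chain of most other leukocyte integrins, read 141 and 123 units and was detected on neither array, as was its relative Itgb2l. The leukocyte markers Ptprc, Spi1, Tyrobp and Laptm5 were detected on neither array, and the part of leukocyte RNA in the Itgb7 difference was not tested. Of 16 leukocyte markers 3 were detected, Cd14 (2.23-fold higher in the Dnmt1-null line) and Coro1a (1.29-fold higher) among them, and their median was 0.37 log2. The summed signal of all 16 was 2392 units in the control and 2274 units in the Dnmt1-null line. Of these probes 13 were undetected. This sum, like those of the other mostly undetected marker lists, therefore mixes background with the signal of the few detected genes.

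Of 9 integrin beta chains 4 were detected: Itgb4 and Itgb7, each on 1 array, and Itgb1 and Itgb5 on both. Itgb5, which pairs with Itgav on vitronectin, read 2258 units in the control and 2688 units in the Dnmt1-null line, 0.26 log2 higher against a scatter of 0.33 log2. Itgb1, the shared partner of Itga3, Itga5, Itga7 and Itga11, had 2 detected probes that gave different answers. Its brighter probe read 475 and 439 units and differed by 0.02 log2, and the other read 302 and 335 units and differed by 0.48 log2, against a scatter of 0.40 log2. Itga3, Itga5, Itga7 and Itga11 were thus higher by 0.51 to 0.75 log2 while Itgb1 itself lay between 0.02 and 0.48 log2, depending on the probe. They are not all of its possible partners: Itga6, detected in the control alone, differed by -1.32 log2 and Itgav by 0.88 log2. Under median scaling and with the authors' processed values the brighter Itgb1 probe lay below 0.

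Itgb3, Itgb6 and Itgb8, further partners of Itgav, were detected on neither array. In the Dnmt1-null line Itgb3 (142 units) and the chosen Itgb6 probe (143 units) came near detection, with p-values of 0.027 and 0.030, against 149 and 135 units in the control. The remaining Itgb6 probes differed by -0.18 and 0.28 log2. Itgb8 differed by 0.22 log2.

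Of the genes named after beta chains, Itgb1bp1, whose protein binds the cytoplasmic tail of Itgb1 and restrains its activation, read 1184 units in the control and 1259 units in the Dnmt1-null line, 0.17 log2 higher. Itgb3bp, better known as a centromere protein, read 438 and 389 units and differed by -0.06 log2. Itgb1bp2, the muscle protein melusin, was detected on neither array. Both detected genes lay within the scatter of genes of similar level.

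**Figure D3:**
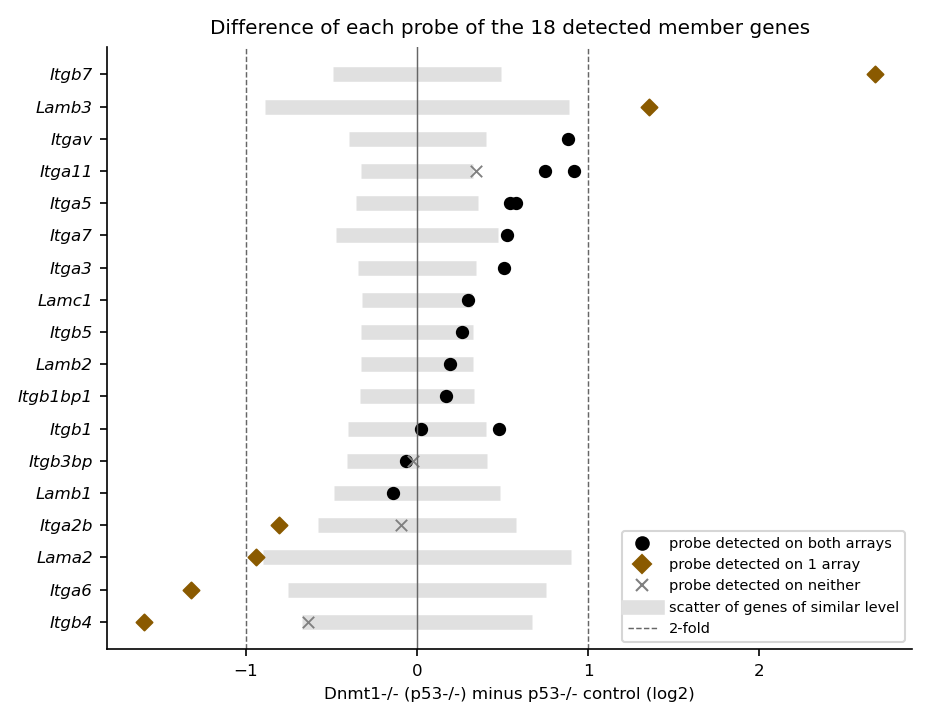
Difference (log2, Dnmt1-/- (p53-/-) minus p53-/- control) of every probe of the 18 detected genes, with marks for probes detected on both arrays, on 1 or on neither, grey bars for the scatter of genes of similar level (plus and minus 1 robust SD) and dashed lines at 2-fold. Itgb7 at 2.68 log2 stands farthest out, the chosen probes of the 5 alpha chains detected on both arrays lie between 0.51 and 0.88 log2 to the right of their bars (further Itga11 probes at 0.34 and 0.91 log2), and the laminin chains detected on both arrays lie within theirs.

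Laminin chains detected on both arrays differed little. Lamc1, the gamma chain of most laminins, read 1478 units in the control and 1729 units in the Dnmt1-null line, 0.30 log2 higher against a scatter of 0.32 log2. Lamb2 read 938 and 990 units and differed by 0.19 log2, and Lamb1 read 238 and 201 units and differed by -0.14 log2. Both beta chains lay within their scatter of 0.33 and 0.49 log2.

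None of the 3 laminin alpha chains measured (Lama1, Lama2, Lama4) was detected in the Dnmt1-null line. Lama2, the alpha chain of muscle and Schwann cell basement membranes, was detected in the control alone, with 186 units there and 130 units in the Dnmt1-null line. Lama2 differed by -0.94 log2 against a scatter of 0.90 log2, and its lower limit was 1.25-fold. Lama1, of early embryonic basement membranes, read 150 and 114 units and Lama4, of vessels and mesenchyme, 135 and 120 units, and neither was detected. Lamb3, the beta chain of the epithelial laminin that anchors skin, passed detection only on the Dnmt1-null array. Its signal was 131 units in the control and 163 units in the Dnmt1-null line, where its detection p-value of 0.0091 lay just inside the limit of 0.01. The measured difference was 1.36 log2 against a scatter of 0.89 log2, and the lower limit was 1.34-fold. Without background correction Lamb3 differed by 0.54 log2. Lamc3 was detected on neither array with either of its probes.

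At 1.5-fold or more, Itgb7, Lamb3, Itgav and Itga11 were higher and Itgb4, Itga6, Lama2 and Itga2b lower, 4 of 18 detected in each direction. Of all detected genes 10.0% were that much higher and 10.7% that much lower. Other than Itgav and Itga11, these genes were detected on 1 array alone, and by lower limits Lamb3 and Lama2 lay under 1.5-fold, so nothing is read from the counts. Over the 18 detected genes the median difference was 0.23 log2, and over the 12 detected on both arrays, of which 10 were higher and 2 lower, it was 0.28 log2. Over all 35 genes it was 0.07 log2. For the whole array the medians were -0.04 log2 over detected genes and -0.03 log2 over those detected on both arrays, 46.1% of which were higher. Over all genes on the array it was -0.007 log2.

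Genes that work with integrins and laminins were described from 4 lists that leave out the 35 genes themselves. Basement membrane partners, the collagens, nidogens and proteoglycans that laminins join, had 23 genes on the array and 14 detected, of which none was 2-fold or more higher, 2 were lower and 12 lay between. Nid2, a nidogen that links laminin to collagen IV, read 2182 units in the control and 807 units in the Dnmt1-null line, 2.84-fold lower. The collagen IV chain gene Col4a5 read 714 and 338 units, 2.34-fold lower. The main chains Col4a1 and Col4a2, picked with their values known, differed by -0.29 and 0.00 log2. The perlecan gene Hspg2 differed by -0.58 log2 and Nid1, the other nidogen, by 0.23 log2. Col7a1 and Tinagl1 had the largest increases among the detected genes of the list, 0.98 and 0.63 log2. All of these were picked in the same way. Of the 12 genes detected on both arrays 5 were higher by any amount and 7 lower. Without background correction 1 gene was 2-fold lower, and with the authors' processed values 3 were. With differences re-centred on the median of genes detected on both arrays, 1 was 2-fold higher. The list median was -0.15 log2, where all detected genes had -0.04 log2, but -0.0075 log2 with lower limits and -0.045 log2 without the filter on dim genes.

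Integrin ligands other than laminins had 26 genes on the array and 14 detected, of which 2 were higher and none lower by 2-fold. The thrombospondin genes Thbs2 and Thbs1, matrix proteins that bind integrins, were 4.33-fold and 2.68-fold higher in the Dnmt1-null line. Thbs2 read 1919 and 7979 units, and Thbs1 222 and 356 units. Named after their values were seen, Tgfbi, Col3a1, Col1a2 and Col1a1 were lower, by -0.95, -0.94, -0.54 and -0.51 log2. Without background correction 1 ligand was 2-fold higher instead of 2. Under median scaling, with the mean of all probes and with the authors' processed values, 1 ligand was 2-fold lower. The list median was 0.26 log2, and 0.12 log2 with the mean of all probes or 0.041 log2 without the filter on dim genes.

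Laminin receptors other than integrins, with the tetraspanins and syndecans that accompany integrins, had 18 genes on the array and 13 detected, of which 1 was higher and none lower. Sgcd, a sarcoglycan of the dystroglycan complex, read 156 units without detection in the control and 194 units in the Dnmt1-null line, at least 2.02-fold higher. Sgcd had 2 probes, of which the one with the higher mean level is given. Without background correction, with an offset of 50 or with the mean of all probes, no gene of the list reached 2-fold. Nor did any when detection on both arrays was required. The tetraspanin gene Cd63 lay at 0.12 log2, as did the list median. Named after their values were seen, Dag1, which encodes dystroglycan, differed by 0.15 log2, and Cd151 and Cd9, tetraspanins that bind laminin-binding integrins, by 0.70 and 0.91 log2. The syndecan genes Sdc2 and Sdc4 went the other way, by -0.94 and -0.42 log2. Under median scaling the list median was 0.01 log2 and 1 gene was 2-fold lower.

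Cytoplasmic partners, which link integrin tails to actin and to signalling, had 33 genes on the array and 22 detected, of which 2 were higher, none lower and 20 between. Ptk2b, a kinase related to focal adhesion kinase, read 150 units without detection in the control and 191 units in the Dnmt1-null line, at least 1.95-fold higher. Lpxn, which encodes the paxillin relative leupaxin, read 156 and 179 units and was at least 1.68-fold higher. By lower limits neither reached 2-fold. Without background correction, or with an offset of 50, neither did by the measured difference. The list median was 0.13 log2, or 0.025 log2 under median scaling, and named after their values were seen, Vcl (vinculin), Ilk (integrin-linked kinase) and Pxn (paxillin) differed by -0.11, 0.14 and 0.25 log2.

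**Figure D4:**
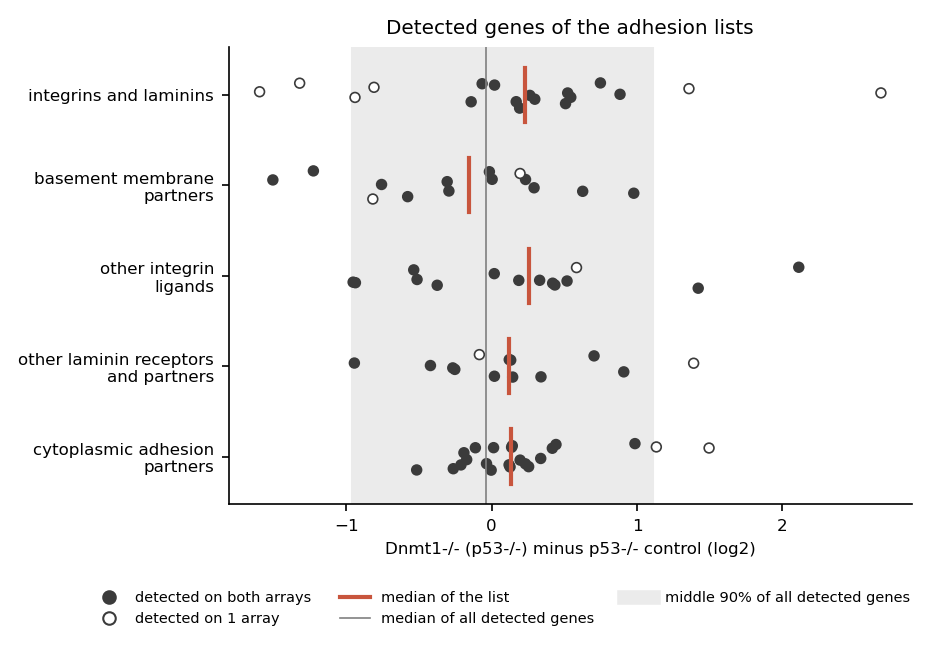
Difference (log2, Dnmt1-/- (p53-/-) minus p53-/- control) of each detected gene among the integrins and laminins and 4 lists of genes that work with them, with filled points for genes detected on both arrays, a red bar at each list's median and a grey band from the 5th to the 95th percentile of all detected genes (-0.96 to 1.11 log2). Of the genes detected on both arrays, Nid2 and Col4a5 lie to the left of the band and Thbs2 and Thbs1 to its right. Of those detected on 1 array, Itga6 and Itgb4 lie to its left and Itgb7, Lamb3, Ptk2b, Sgcd and Lpxn to its right. The medians of the 5 rows lie between -0.15 and 0.26 log2.

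**Figure D5:**
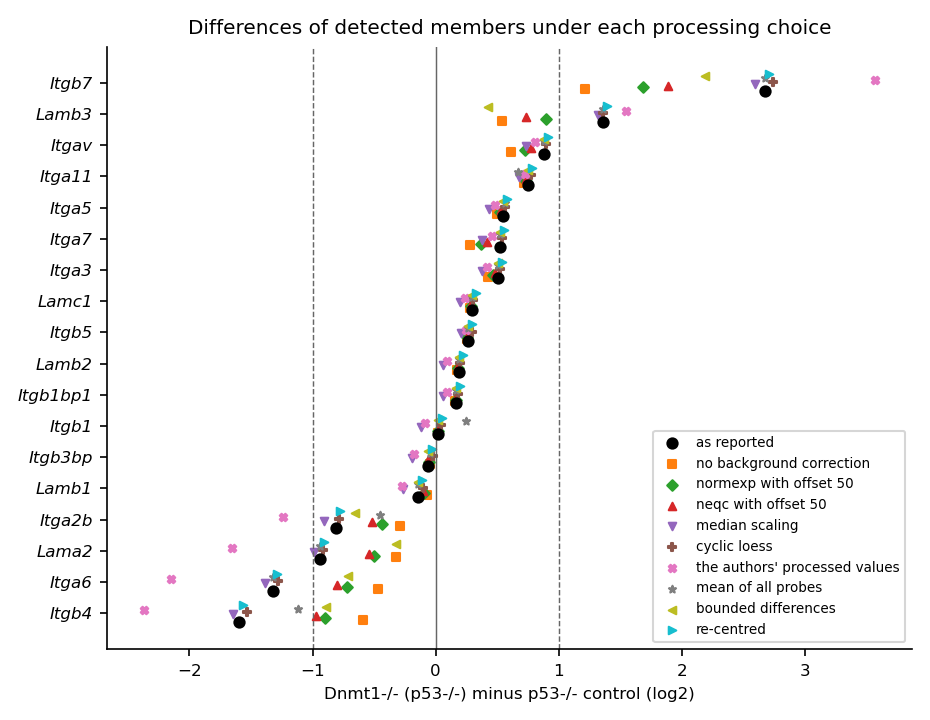
Difference (log2, Dnmt1-/- (p53-/-) minus p53-/- control) of the 18 detected genes as reported and under 9 other processing choices, 1 mark per choice, with dashed lines at 2-fold. Itgb7 stays to the right of 2-fold throughout, from 1.22 to 3.57 log2, the 5 alpha chains detected on both arrays stay between 0.28 and 0.92 log2, and Itgb4, Itga6 and Lamb3 fall inside 2-fold under several choices.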

How the data were processed

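RNA was amplified and labelled with biotin, per the labels' protocols, and 2 arrays were compared, 1 per genotype as given in the labels. The deposited intensity values were linear and, per the file headers, not normalized (scanner software: not given in the sources used here). Detection p-values were deposited beside them. The authors' processed table, also deposited as intensity, had equal column means (507), medians of 14.2 and 13.8, 26.7% and 26.4% of values below 0, and nearly the rank order of the signals (Spearman rho across probes 1.000 for both); its background and scaling method stayed unknown.

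The non-normalized signals of 25697 probes went through neqc of limma 3.58.1 (R 4.3.3) (normexp background from detection p-values, offset 16, quantile normalization, log2). The steps were run on simulated data, with known changes set only in probes that started well above background. That run therefore does not show how folds of genes close to background on both arrays are recovered. Of the probes 23978 had 1 gene symbol, and all 35 members matched RefSeq (GRCm38.p6). Each gene was represented by its probe with the highest mean level, which favours large differences for genes near background; 11 members had several probes. Differences are Dnmt1-null minus control; the number of arrays limits their precision, and no p-value was computed for any. Members and lists were chosen with earlier results of these data known. The rule for named genes took all members, Dnmt1, the sex-linked markers and, per list, up to 4 genes (2 for cell markers) with the largest differences of 2-fold or more, filled up to 2 with the brightest detected genes; cell markers detected on neither array were named with values known. Python 3.11.15 with pandas 2.3.3, numpy 2.4.6 and matplotlib 3.10.9 was used.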

Additional observations from a re-analysis of the deposited data

How the results depend on the processing

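With 1 array per genotype no array could be left out, and 13 alternative processing choices were tried. No paired analysis was possible because each genotype had 1 array. The count of integrin and laminin genes 2-fold or more higher (2) became 1 without background correction, with an offset of 50 (normexp or neqc), and with lower limits for undetected signals, in each case leaving Itgb7. It became 0 when detection on both arrays was required and 4 at 1.5-fold. The count of lower genes (2) became 0 under these same choices other than 1.5-fold, where it was 4, and 4 with the authors' processed values, which added Itga2b (-1.24 log2) and Lama2 (-1.65 log2). The median of 0.23 log2 was 0.13 log2 under median scaling, which moved the median of all genes detected on both arrays from -0.03 to -0.13 log2, and 0.071 log2 without a filter on dim genes.

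Over all genes, 429 higher and 355 lower became 199 and 142 without background correction, 272 and 206 with normexp and an offset of 50, 197 and 178 when detected on both arrays and 774 and 824 at 1.5-fold. Lower genes numbered 233 with neqc and an offset of 50. They numbered 568 with the authors' processed values, where 463 were higher, and 441 under median scaling, where 387 were higher, so the split between higher and lower depends on the scaling. No member past 2-fold changed direction under the 9 choices that can alter the value of a gene. Not all of these choices could have reversed a direction. With lower limits a gene detected on 1 array alone keeps its direction by construction. Re-centring on the median of genes detected on both arrays shifts every gene by the same small amount. Itgb4 and Itga6 were past 2-fold under 5 of the 9, as was Lamb3. Itgb7, Itga6 and Lamb3 had 1 probe each, so the mean of all probes returned their reported values by construction. Signals near background limit Itgb4, Itga6 and Lamb3. The causes of these shifts were not tested.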
